A study of Mus musculus with 6 samples.

Results

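The subunits of the oxidative phosphorylation system were examined in bulk RNA-seq of the proximal mouse incisor. The members were the 107 of 19270 genes in the authors' table whose names follow the subunit families of complexes I to V (Nduf, Sdh, Uqcr, Cox and Atp5) or begin with mt-, the prefix of genes on mitochondrial DNA. They comprised 92 nuclear genes and 15 mitochondrial genes, the latter being 13 mRNAs and 2 rRNAs. Of the nuclear genes, 11 are pseudogenes or processed copies and *Cox7a2l* is a supercomplex assembly factor, which left 80 subunit genes, with *Ndufb1-ps* counted as the complex I subunit that RefSeq names Ndufb1. *Ndufa4* and *Ndufa4l2* were placed with complex IV, where the NDUFA4 protein is found. Cox6a2, Cox7b2, Cox8b and Cox8c were not analysed here.

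The control group comprised 3 libraries and the mutant group 3 libraries of *Gli1-CreER;Arid1b fl/fl* animals. Tamoxifen activates their Cre in GLI1+ cells and deletes *Arid1b*, a subunit of the BAF chromatin remodelling complex. All mice received tamoxifen at 1 month of age and the tissue was taken 4 days after induction. The labels call the controls wild type, whereas the methods describe them as *Arid1b* fl/fl mice given the same tamoxifen. GLI1+ cells give rise to both mesenchyme and epithelium of the incisor, and the dissected tissue also holds cells that do not express the Cre, so the libraries average over recombined and other cells. *Arid1b* had an authors' mean of 97.6 in controls and 38.0 in mutants.

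Oxidative phosphorylation produces most of the ATP of respiring cells. Complexes I to IV pass electrons from NADH and succinate to oxygen and, except for complex II, pump protons across the inner mitochondrial membrane, and complex V uses the returning protons to make ATP. Complexes I, III, IV and V are assembled from subunits of 2 genomes, since mitochondrial DNA carries a small set of their membrane core subunits and the nucleus encodes the rest, whereas complex II is wholly nuclear. Mitochondrial genes are transcribed as long transcripts from both strands of the circular genome and cut into single RNAs.

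The values are the authors' means per gene and group, a normalized signal without a spread between mice. Every ratio given here is therefore that of the mutant to the control mean, on a log2 scale, and describes these libraries without a test across mice. In bulk tissue, fewer cells of a type and less RNA per cell cannot be told apart. From the lowest values, the libraries held about 37123643 to 49594469 reads on these genes, if the lowest value of a library stands for no reads, and their upper quartiles lay between 44.57 and 44.58.

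Several mitochondrial genes overlap each other or have a copy in the nuclear genome, which bears on their values. The sequences below, from the GENCODE vM21 transcripts of GRCm38 (mm10), are shown because reads from these stretches belong to more than 1 gene. In the first 2 lines the capitals mark the bases shared by neighbouring genes. The *mt-Atp8* and *mt-Atp6* genes share 43 bases (chrM:7927-7969) and the line shows chrM:7903-7993, plus strand. The *mt-Nd4l* and *mt-Nd4* genes share 7 bases (chrM:10167-10173) and the line shows chrM:10143-10197, plus strand.
mt-Atp8/mt-Atp6: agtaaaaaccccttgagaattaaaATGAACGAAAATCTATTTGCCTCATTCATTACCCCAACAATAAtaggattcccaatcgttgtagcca
mt-Nd4l/mt-Nd4: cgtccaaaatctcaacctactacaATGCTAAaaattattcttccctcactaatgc

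A stretch of chromosome 1 holds pseudogene copies of 7 mitochondrial mRNAs, from *Gm28439* (chr1:24611535-24612410) to *Gm29216* (chr1:24615706-24616197), all on the minus strand. The copies *Gm10925* of *mt-Atp6* (678 aligned bases), *Gm28661* of *mt-Co2* (681), *Gm28437* of *mt-Co3* (783), *Gm10222* of *mt-Nd4l* (294) and *Gm28439* of *mt-Nd4* (876) were identical to the gene over the aligned bases. *Gm28438* differed from *mt-Nd3* at 1 of 345 bases, and *Gm29216* from *mt-Co1* at 1 of 483 bases. The next lines show both differences in capitals, T3C in *mt-Nd3* and A1066T in *mt-Co1*, with positions counted from 1 at the 5′ end of the gene's transcript and the gene's base first.
mt-Nd3: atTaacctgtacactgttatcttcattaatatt
Gm28438: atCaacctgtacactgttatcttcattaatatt
mt-Co1: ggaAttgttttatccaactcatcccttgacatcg
Gm29216: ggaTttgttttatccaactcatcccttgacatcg

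All 13 mitochondrial mRNAs had a lower mean in the mutants, with a median log2 ratio of -0.26 and a range from -0.36 to -0.20. By comparison, 49.5% of all genes were lower in the mutants and the median over all genes was 0.00. Lower by more than 1.1-fold were 13 of the 13, a fold chosen after the data were seen, against 25.1% of all genes and 15.9% of those 10311 whose mean reached 10. The same share was 20.5% of the 2057 genes whose mean reached 100. It was 43.8% of the 48 genes other than mt- whose mean reached 1000, a level that 9 of the 13 mRNAs also reached. Those 48 include the nuclear copies *Gm10925*, *Gm28661* and *Gm28437*, which have the sequence of mitochondrial genes and were lower too. Lower by more than 1.2-fold were 7 of the 13, against 15.7% of all genes, 177 of the 2057 whose mean reached 100 and 15 of those 48. None was past the fold of 1.5 that the study used. In either direction 13.2% of all genes passed that fold, as did 316 of the 10311 whose mean reached 10 and 40 of the 2057.

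Among the 7 mitochondrial genes of complex I, which encode membrane subunits of its proton pump, the median was -0.31. The authors' means were 6347 in controls and 5103 in mutants for *mt-Nd4*, 3960 and 3382 for *mt-Nd5*, and 3289 and 2808 for *mt-Nd1*. Those of *mt-Nd2* were 2483 and 2003, those of *mt-Nd6* 330.0 and 259.0, those of *mt-Nd4l* 319.6 and 249.6, and those of *mt-Nd3* 295.9 and 257.6. The log2 ratios were -0.36 for *mt-Nd4l*, -0.35 for *mt-Nd6*, -0.31 for *mt-Nd4* and *mt-Nd2*, -0.23 for *mt-Nd1* and *mt-Nd5*, and -0.20 for *mt-Nd3*. *mt-Nd6* is the only mRNA of the other strand of mitochondrial DNA, and its ratio lay within the range of the plus-strand genes. It overlaps *mt-Nd5* by 14 bases on the opposite strand, and whether reads were counted by strand is not given in the sources used here.

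*mt-Cytb*, which encodes the cytochrome b of complex III, had means of 6401 in controls and 5025 in mutants, a log2 ratio of -0.35. Of the 3 catalytic core subunits of complex IV, *mt-Co1* was the most abundant member of all, with 11976 in controls and 9976 in mutants (log2 ratio -0.26). *mt-Co2* had 2519 and 2097 (-0.26), and *mt-Co3* had 2953 and 2561 (-0.21). For the proton channel of complex V, the means of *mt-Atp6* were 3525 and 3011 (-0.23), and those of *mt-Atp8*, a small subunit beside it, were 906 and 758 (-0.26). The summed mean of the 13 mRNAs was 4.43% of the summed means of all genes in the controls and 3.82% in the mutants.

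The 2 mitochondrial rRNAs, the RNAs of the mitochondrial ribosome, lay closer to equality than any of the 13 mRNAs. *mt-Rnr2* (16S) had means of 869.6 and 797.5 with a log2 ratio of -0.12, and *mt-Rnr1* (12S) had 292.6 and 287.8 with -0.02, which was above 0 after division by the total signal. They are transcribed upstream of the mRNAs on the same strand, and the plot of mitochondrial genes in genome order shows them as the shortest bars. Per kb of exons, *mt-Rnr2* had 549.7 and *mt-Rnr1* 306.4 in the controls, below *mt-Nd6*, the lowest mRNA, at 635.9. The part of library preparation in the rRNA values was not tested.

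**Figure D1:**
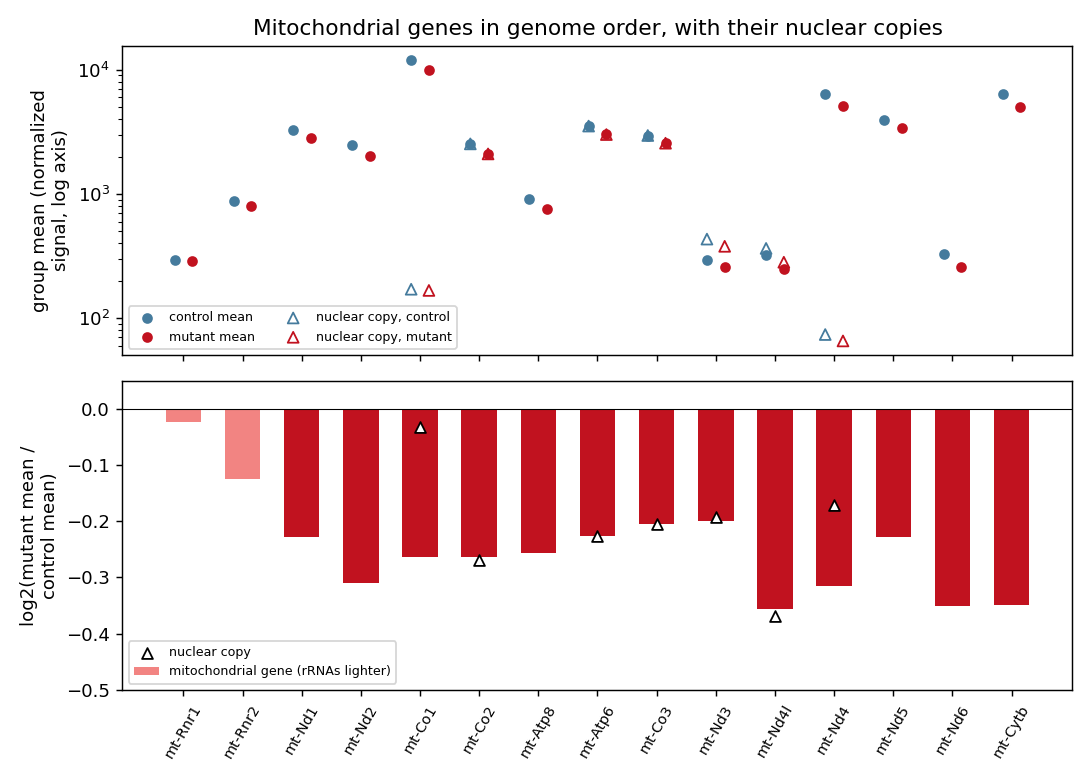
Authors' mean per group (upper panel, log axis, normalized signal) and log2 of the mutant over the control mean (lower panel) for the 15 mitochondrial genes in genome order. Triangles are nuclear copies on chromosome 1. All 13 mRNAs lie between -0.36 and -0.20, and the rRNAs (lighter bars) at -0.02 and -0.12.

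The nuclear copies had values close to those of the genes they match. *Gm10925* had a control mean of 3518 beside 3525 for *mt-Atp6*, *Gm28661* had 2528 beside 2519 for *mt-Co2*, and *Gm28437* had 2953 beside 2953 for *mt-Co3*. *Gm28438* and *Gm10222* exceeded their genes, with 433.0 and 364.5. The copies of only part of a gene were far lower, at 73.9 for *Gm28439* and 171.0 for *Gm29216*. Reads that fit both places cannot be assigned, so the levels of these genes are uncertain, and how such reads were counted is not given in the sources used here. With 8 copies in all, including a more diverged copy of *mt-Co1* on chromosome 2 (*Gm13340*), the copies had a median log2 ratio of -0.22 and all 8 were lower. The 13 mRNAs summed with the copies had a log2 ratio of -0.27, and *mt-Nd1*, *mt-Nd2*, *mt-Nd5*, *mt-Nd6*, *mt-Cytb* and *mt-Atp8*, which have no such copy in the table, lay between -0.35 and -0.23. Of these, *mt-Atp8* shares 43 bases with *mt-Atp6*, to which *Gm10925* was identical over the aligned bases. The chromosome 1 bases between *Gm10925* and *Gm28661* were not compared with *mt-Atp8*, so its level is uncertain too.

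Many other abundant transcripts were also lower in the mutants. Among the 48 genes other than mt- with a mean of at least 1000, 32 were lower (28 after division by the total signal) and 16 higher. Their median log2 ratio was -0.12 and the mean of their log2 ratios 0.03. Among the higher ones were the dental epithelium markers *Enam*, *Amelx* and *Ambn*, at 3.87, 3.45 and 2.44. The 48 include *Gm10925* (-0.23), *Gm28661* (-0.27) and *Gm28437* (-0.21), whose reads cannot be told from those of the mitochondrial genes they copy. *Col1a1*, the main collagen of dentin and bone, had a log2 ratio of -0.31 and *Dspp*, the dentin matrix gene of odontoblasts, -0.32, whereas *Eef1a1*, a translation elongation factor, had 0.03. The most abundant gene of all was the 18S rRNA gene CT010467.1, whose group means equal the means of the libraries' highest values to within 0.00021%, so that its values per library are known. They were 100574, 103242 and 71195 in the controls and 45027, 87189 and 78945 in the mutants. The groups overlapped, and the log2 ratio of the means of CT010467.1, -0.38, did not pass an exact two-sided permutation test (p = 0.30, n = 3 per group, where the smallest possible p is 0.10). This gene alone took between 4.75% and 9.85% of the normalized signal of a library. Without it in the total, the mitochondrial mRNAs took 4.87% in the controls and 4.12% in the mutants. The part of these other transcripts in the mitochondrial result was not tested.

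The 80 nuclear subunit genes did not share the lower means of the mitochondrial mRNAs. Of these, 39 were higher and 41 lower in the mutants (28 lower after division by the total signal of each group), with a median log2 ratio of -0.01, and their summed means were 5318 in both groups. None was past a fold of 1.5. Lower by more than 1.2-fold were 3 genes (*Cox4i2*, *Ndufa4l2* and *Cox7a1*) and none was higher by that fold, against 15.7% of all genes that were lower and 16.0% that were higher. Past 1.1-fold were 7 lower and 1 higher, the latter *Ndufs5*, against 25.1% of all genes that were lower and 25.0% that were higher. Among the 78 with a mean of at least 10, 6.41% were lower by more than 1.1-fold and 1.28% higher, and both shares lay below those of all genes at that level, 15.9% and 15.1%. The gap between the median of the mitochondrial mRNAs and that of the nuclear members remained under each scaling tried, since a scaling shifts both by the same amount.

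**Figure D2:**
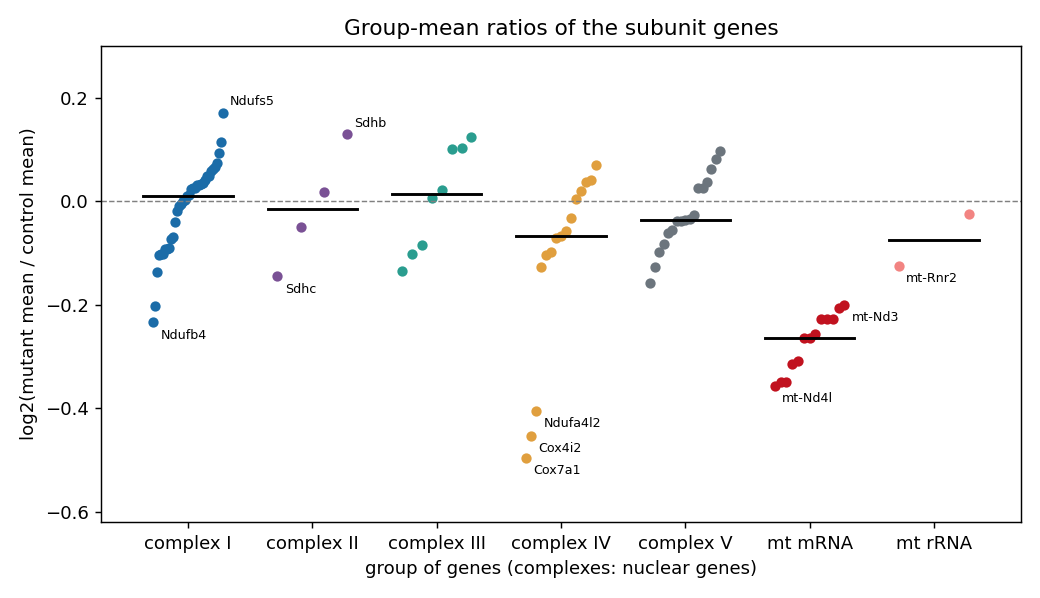
Log2 of the mutant over the control mean for each nuclear subunit gene by complex and for the mitochondrial mRNAs and rRNAs. Each point is 1 gene and black lines are medians. The mitochondrial mRNAs lie at a median of -0.26, and the medians of the nuclear genes of the complexes lie between -0.07 and 0.01.

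Complex I, which oxidizes NADH, had 36 nuclear genes with a median of 0.01, of which 21 were higher and 15 lower (11 lower after division by the total signal). Its 7 nuclear core subunits carry the flavin and the iron-sulfur clusters. Of these, 6 were higher and the median was 0.04. *Ndufs1*, the largest of them, had means of 72.1 in controls and 78.1 in mutants (log2 ratio 0.11), whereas *Ndufv1*, the flavin-binding subunit, had 59.1 and 55.4 (-0.09). The 29 accessory subunits, which surround this core, had a median of 0.00, with 15 higher and 14 lower. The largest positive log2 ratio was that of *Ndufs5*, at 0.17 with means of 20.9 and 23.5. The lowest were *Ndufb4* at -0.23 with 11.1 and 9.40, and *Ndufc1* at -0.20 with 23.1 and 20.1, both accessory subunits of the membrane arm.

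*Ndufb4* has an exact copy, *Ndufb4c*, a processed pseudogene identical over 390 bases, and the copy had the higher means, 28.2 in controls and 24.8 in mutants. The start of the identical coding stretch is shown, with the start codon in capitals, because reads from it fit both genes.
Ndufb4 and Ndufb4c: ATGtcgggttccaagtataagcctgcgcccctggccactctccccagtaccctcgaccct
The log2 ratio of *Ndufb4* and *Ndufb4c* summed was -0.20. The only member past a fold of 1.5 was also a pseudogene, *Ndufs5-ps* (chr16:42955580-42956079 in RefSeq on GRCm38.p6), with a control mean of 5.85, a mutant mean of 1.30 and a log2 ratio of -2.17. *Ndufs5* itself lies on chromosome 4 and had a ratio of the opposite sign. Summed with *Ndufs5-ps*, *Ndufs5* had 26.7 in controls and 24.8 in mutants, a log2 ratio of -0.11. No sequence of *Ndufs5-ps* was compared with *Ndufs5* here. Whether reads were split between them was not tested, so both ratios are uncertain. The other 10 copies had means of 0.133 to 28.2 in the controls.

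Complex II links the citric acid cycle to the respiratory chain and contains no mitochondrially encoded subunit. Its flavoprotein *Sdha* had means of 200.7 in controls and 203.2 in mutants (log2 ratio 0.02), and its iron-sulfur subunit *Sdhb* had 53.5 and 58.5 (0.13). The membrane anchors differed in the other direction, with 107.9 and 97.5 for *Sdhc* (-0.15) and 70.5 and 68.2 for *Sdhd* (-0.05). The catalytic pair was thus higher and the anchor pair lower, but counting error alone gives *Sdha* a 95% interval from -0.007 to 0.044. Under division by the total signal *Sdhd* changed to a ratio above 0.

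Complex III, which passes electrons from ubiquinol to cytochrome c, had 8 nuclear genes with a median of 0.01. The 3 larger subunits, the core proteins *Uqcrc1* and *Uqcrc2* and the Rieske iron-sulfur protein *Uqcrfs1*, were all higher, at 0.10, 0.10 and 0.12. The means of *Uqcrc2* were 106.2 and 114.1, and those of *Uqcrfs1* 52.1 and 56.8. Of the 5 small subunits 3 were lower, with *Uqcr11* at -0.13 (28.5 and 26.0), *Uqcrq* at -0.10 (22.1 and 20.6) and *Uqcr10* at -0.09, and *Uqcrb* and *Uqcrh* lay at 0.01 and 0.02.

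Complex IV, cytochrome c oxidase, had the lowest median of the complexes, -0.07, with 10 of 15 genes lower (8 after division by the total signal). *Cox4i2*, the hypoxia-associated isoform of subunit 4 (chr2:152754173-152765037, plus strand), had the largest difference among subunit genes with a mean of at least 10. Its means were 52.8 in controls and 38.5 in mutants, a log2 ratio of -0.45. The ubiquitous isoform *Cox4i1* had 151.2 and 158.6 (0.07). *Ndufa4l2*, the hypoxia-associated relative of *Ndufa4*, had 2.58 and 1.95 (-0.40), and *Ndufa4* had 73.1 and 68.1 (-0.10). *Cox7a1*, the muscle and heart isoform of subunit 7A, had 0.302 and 0.214, about 32.0 and 24.8 reads over each group, and counting error alone gives its log2 ratio of -0.50 a 95% interval from -1.25 to 0.26. *Cox7a2*, the widely expressed isoform, had 49.6 and 48.5 (-0.03), and *Cox7a2l* 146.5 and 147.6 (0.01). *Cox6b2*, described as the testis isoform, had 11.7 and 12.0 (0.04) beside 61.4 and 61.6 (0.01) for *Cox6b1*. The 7 ubiquitous isoforms had a median of -0.07, with *Cox8a* at -0.13 (82.1 and 75.2) and *Cox7b* at -0.10 (64.5 and 60.3).

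*Cox4i2* and *Ndufa4l2* are both known from pericytes, and pericyte markers were lower in the mutants as well. Of 8 such markers 7 were lower, with a median of -0.22 and a summed mean of 876.3 in controls and 738.7 in mutants. *Kcnj8* had 21.5 and 11.0, *Pdgfrb* 176.8 and 142.5, and *Rgs5* 411.0 and 340.1, while *Mcam* had 51.8 and 58.6 and *Higd1b* was at 0.217 and 0.212. Of 7 endothelial markers 5 were higher, with a median of 0.05. The part of these cells in the values of *Cox4i2* and *Ndufa4l2* was not tested. Lower in mutants were 10 of the 12 skeletal muscle markers measured, with a median of -0.61 and a summed mean of 10.4 in controls and 8.36 in mutants. In controls *Acta1* had 2.50, *Tnnt3* 1.41 and *Myl1* 1.04, all above the 0.302 of *Cox7a1*. *Myh4* and *Myh1* were higher in the mutants, with 0.552 and 2.06 for *Myh4* and 0.679 and 0.739 for *Myh1*. The part of muscle in the value of *Cox7a1* was not tested.

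Complex V, the ATP synthase, had 17 nuclear genes with a median of -0.04, of which 11 were lower. In the catalytic F1 part, the largest subunits were higher, with 485.6 and 507.2 for *Atp5a1* (log2 ratio 0.06), 597.6 and 608.1 for *Atp5b* (0.03) and 145.5 and 154.1 for the gamma subunit *Atp5c1* (0.08). The small F1 subunits were lower, at -0.06 for *Atp5d* and -0.13 for *Atp5e* (55.1 and 50.5). The peripheral stalk, which holds the catalytic head still, had 4 genes between -0.04 and 0.04. The c ring is encoded by 3 genes for the same mature protein, which differed in direction: *Atp5g1* at 0.10 (42.8 and 45.7), *Atp5g2* at -0.08 (49.5 and 46.7) and *Atp5g3* at -0.04 (131.3 and 127.9). *Atp5g2* has an exact copy, *Gm10175*, with 39.2 in the controls, and the 2 summed had a ratio of -0.01. The 5 other membrane subunits were all lower, with a median of -0.06 and *Atp5k* the lowest at -0.16 (29.1 and 26.1), but only 2 of them after division by the total signal. *Atp5l*, at -0.04 with 58.8 in controls, has an exact copy over 309 bases, *Gm10221*, with 18.2, and the 2 summed had a ratio of -0.10. With that scaling 5 of the 17 genes were lower and the median of complex V was 0.02.

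Across complexes I, III and V, small subunits tended to lie below large ones. Of the 76 nuclear subunit genes with a coding length in the annotation, the 38 at or under the median of 409.5 bases had a median log2 ratio of -0.06, with 25 lower (19 after division by the total signal). The 38 longer genes had a median of 0.02, with 14 lower (8 with that scaling). Across these genes, Spearman's rho between coding length and log2 ratio was 0.52 and Pearson's r was 0.40 on log2 length, given as descriptions, since all genes come from the same libraries. Among 9861 other genes with a coding length and at a mean of 10 or more, rho over all lengths was 0.02. The 420 of them of at most the same length had a median of -0.03, with 60.5% lower. Of the short subunit genes 65.8% were lower, and the difference between these shares was not tested. The subunit genes were not held to that mean, and the short ones include *Cox7a1* and *Ndufa4l2*, both lower, at means of 0.258 and 2.27 over both groups.

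**Figure D3:**
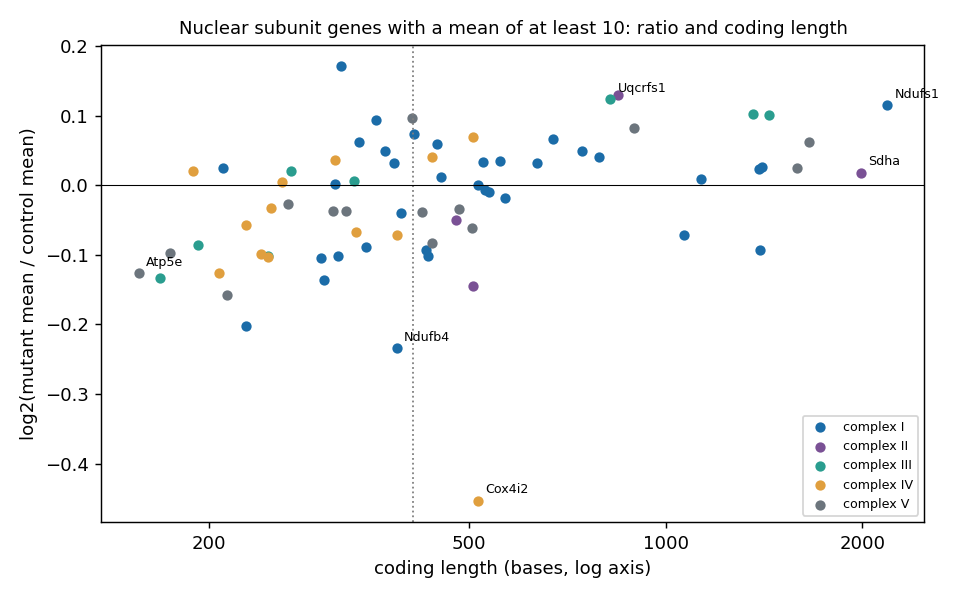
Log2 of the mutant over the control mean against coding length (log axis, bases) for nuclear subunit genes with a mean of at least 10, coloured by complex. The dotted line is the median length of 409.5 bases, to the left of which 25 of 38 genes (including those of low mean, not drawn) were lower.

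Levels were compared between genes per kb of merged exons. In the controls the median was 3683 for the 13 mitochondrial mRNAs and 31.8 for the 77 nuclear subunit genes with a length, so the lowest mitochondrial mRNA, *mt-Nd6* at 635.9 per kb, exceeded the highest nuclear subunit gene, *Atp5a1* at 154.9 per kb. The highest per kb were *mt-Co1* at 7751 among all, and *Ndufc2*, *Sdhd*, *Uqcrh*, *Cox8a* and *Atp5a1* in complexes I to V, at 55.7, 57.3, 77.5, 132.6 and 154.9. The medians per kb were 21.9 for complex I, 40.9 for complex II, 43.1 for complex III, 53.0 for complex IV and 34.2 for complex V. With the longest basic transcript as the length, a choice made after the data were seen, the order differed. The medians of complexes I to V were then 32.9, 52.1, 60.1, 78.4 and 89.1, and *Atp5b* was the highest nuclear gene at 311.9. The place of complex V relative to complexes II, III and IV per kb thus depends on the length used. Per kb, *Cox4i2* at 66.9 lay within the range of the ubiquitous subunits of complex IV, and *Cox7a1* at 0.564 far below it.

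**Figure D4:**
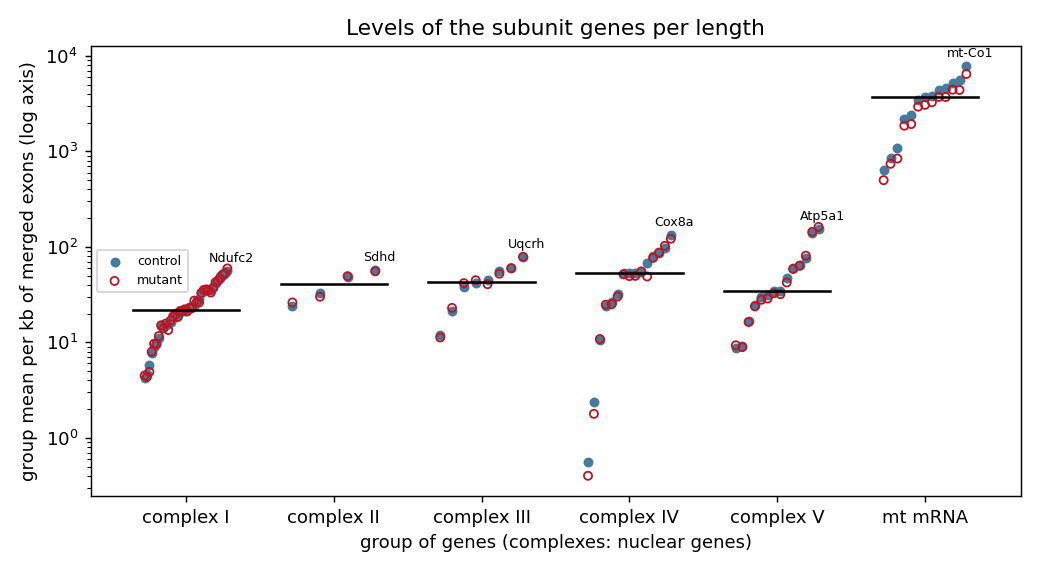
Authors' group means per kb of merged exons (log axis) for nuclear subunit genes by complex and for the mitochondrial mRNAs, in controls (filled) and mutants (open). Black lines are control medians, at 21.9 for complex I and 3683 for the mitochondrial mRNAs, and the gene with the highest control mean per kb is named.

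Promoters of the nuclear genes were searched for the core motifs of 4 factors known to control respiratory genes, on both strands: CGCATGCG for NRF1, CCGGAAG for ETS factors such as GABPA, AAGATGGC for YY1 and AAGGTCA for the estrogen-related receptors. RefSeq promoter sequences (GRCm38.p6, from 250 bases before to 50 after a start) matched 66 of the 92 nuclear members. The NRF1 core was found in 9 (13.6%) of them, against 3.71% of the 12719 genes of the table that have a promoter sequence. The YY1 core was found in 10 (15.2% against 4.56%), the ERR core in 8 (12.1% against 4.01%) and the ETS core in 17 (25.8% against 17.4%). At least 1 motif was found in 34 members (51.5%) and in 26.7% of all genes. A match is a description of letters and not of binding. The stretches before the starts of *Atp5l* (chr9:44920893-44920992, minus strand) and *Ndufa11* (chr17:56717686-56717761, plus strand) are shown because they hold the NRF1 core and lie outside annotated exons. Capitals mark motifs, which in *Atp5l* are the NRF1 core and the ETS core on the other strand, and in *Ndufa11* the NRF1 core.
Atp5l: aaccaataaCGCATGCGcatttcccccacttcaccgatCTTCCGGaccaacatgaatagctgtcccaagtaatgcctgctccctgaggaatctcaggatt
Ndufa11: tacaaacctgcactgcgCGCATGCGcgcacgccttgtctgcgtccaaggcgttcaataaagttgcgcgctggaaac

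The 9 genes with an NRF1 core had a median log2 ratio of -0.07, with 7 lower, among them *Uqcr11* and *Atp5k* at -0.13 and -0.16, while *Uqcrc1* was higher and *Ndufa8* lay at 0.00. The 8 genes with an ERR core had a median of -0.08, with 7 lower, the 17 with an ETS core -0.04, with 10 lower, and the 10 with a YY1 core 0.02, with 4 lower. The members without the motif had medians of 0.01 for NRF1, ERR and ETS and 0.00 for YY1. Of all 92 nuclear members 46 were lower, and of all genes 49.5%. Division by the total signal raises every log2 ratio by 0.06, a shift near the size of the NRF1 and ERR medians. *Atp5k* and *Atp5l* hold both the NRF1 and the ERR core. The part of coding length in these medians was not tested. Of the factors and coactivators of these promoters, *Nrf1* had means of 26.1 and 27.6 (log2 ratio 0.08), *Gabpa* 106.7 and 103.5 (-0.04), *Gabpb1* 30.6 and 30.5 (0.00), *Yy1* 122.1 and 125.8 (0.04) and *Esrra* 11.0 and 11.9 (0.10). *Ppargc1a*, the coactivator that promotes mitochondrial biogenesis, had 15.8 and 11.5 (-0.45). Its relatives *Ppargc1b* and *Pprc1* had 4.33 and 4.93 (0.19) and 51.6 and 57.9 (0.16), and *Esrrg* and *Esrrb* had 0.19 and -0.28 at means of 5.79 and 2.03 in the controls. None of the 10 passed a fold of 1.5.

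Genes that make, assemble or feed the complexes lay near equality. The 4 listed subunits and carriers outside the naming rule were *Ndufab1* (acyl carrier subunit of complex I, 0.12), *Cycs* (cytochrome c, 0.03), *Cyc1* (cytochrome c1, 0.01) and *Atpif1* (ATP synthase inhibitor, 0.00). The 47 assembly factors in the table had a median of -0.03, with 17 higher and 30 lower, and *Lyrm7*, which acts in complex III assembly, was the lowest at -0.49 with means of 6.27 and 4.45. The 17 citric acid cycle and linked genes had a median of 0.02, with 10 higher. The 12 genes of mitochondrial DNA transcription and replication, which act on the genes of the mitochondrial genome, had a median of 0.04, with 9 higher. The 81 mitochondrial ribosome genes had a median of 0.02, with 48 higher, and the 2 past a fold of 1.5 were pseudogenes, *Mrpl23-ps1* at 0.71 and *Mrps36-ps1* at -1.23.

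**Figure D5:**
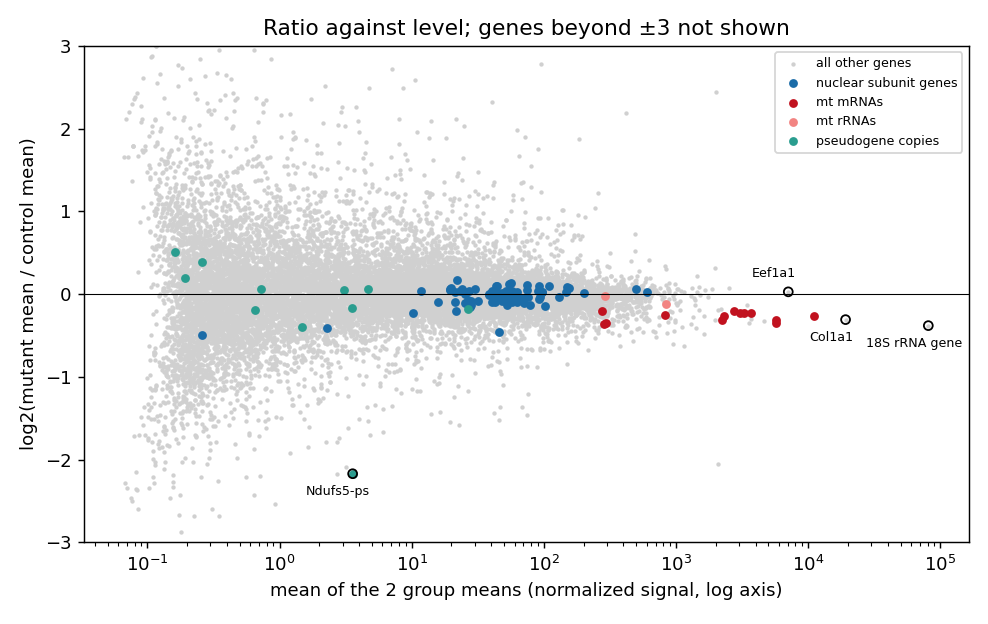
Log2 of the mutant over the control mean against the mean of both groups (log axis) for all genes with members coloured, where genes beyond 3 on the log2 scale are not drawn. The mitochondrial mRNAs lie among the most abundant genes and below 0, as do *Col1a1* and the 18S rRNA gene, with *Eef1a1* at 0.03, and *Ndufs5-ps* lies at -2.17.

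The groups also differed in marker transcripts of tissues, cell types and sex. Of 14 dental epithelium markers 13 were higher in the mutants, with a summed mean of 1827 in controls and 10589 in mutants. *Enam*, *Amelx* and *Ambn* were the highest of them in the mutants. Of 14 dental mesenchyme markers 13 were lower, with 33216 and 26900, sums to which *Col1a1* gave 21211 and 17127. Among the lower ones was *Gli1*, at 106.4 and 46.1. The mutants carry the *Gli1-CreER* allele, which the methods do not name for the controls, and its part in the *Gli1* value was not tested. All 7 erythroid markers were lower (64.7 and 22.7), 5 of 8 leukocyte markers were higher (344.5 and 370.7), and of 6 adipocyte markers *Fabp4* alone was in the table at 4.27 and 3.96. The Y-linked transcript *Ddx3y* was at the lowest value in the controls and at 65.3 in the mutants, at least 631-fold higher, and *Xist* had 3368 and 813.8. Of the members on the X chromosome, *Ndufa1* and *Ndufb11* had log2 ratios of 0.02 and 0.01 and *Cox7b* -0.10. The part of tissue makeup and of sex in the values of the subunit genes was not tested, and both cannot be told apart from the genotype in these group means.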

How the data were processed

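Total RNA from 3 control and 3 mutant libraries was sequenced. Per the submitters' processing notes TopHat2 2.0.8 and mm10 were used, and the methods name trimming and Partek Flow. How reads were counted, the annotation and the strand setting are not given in the sources used here. The authors deposited 1 mean per gene and group, a normalized signal, and a summary of that signal for each library. The deposited p-value, FDR, ratio and fold change columns hold the authors' own comparison and were not used. The planned test for values per library could not be applied to group means.

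Log2 ratios of the means were computed for all 19270 genes, and all lay above the floor of 3 reads per library in at least 1 group. Genes were described by the fold of 1.5 of the study's methods, and by 1.2 and 1.1. Positions and lengths came from GENCODE vM21 (99 of the 107 members matched exactly 1 gene), and other positions and promoters from RefSeq on GRCm38.p6. Copies were genes in the table whose transcript matched a member at 97% identity or more over at least 150 bases and 80% of the copy (blastn 2.17.0). Reads per library were estimated by taking the lowest value as no reads, and intervals from them cover counting error only. Named genes were, by rule, members past 1.5-fold, the 2 highest and 2 lowest per complex with a mean of at least 10, the highest per kb, mitochondrial genes, isoform sets, complex II, regulators and listed genes past 1.5-fold. Marker genes, Lyrm7, Ndufv1, the single members that fill out a complex, copies and abundant genes were picked once their values were known. Members and lists were chosen with earlier results of these data known. The ratio step was tested on simulated data. Calculations used scipy 1.17.1, pandas 2.3.3 and numpy 2.4.6 in Python 3.11.15, and plots matplotlib 3.10.9. Single-cell and chromatin data were not analysed here.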

Additional observations from a re-analysis of the deposited data

How the results depend on the processing

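Of 71 comparisons with an alternative setting, 65 stayed within 1.5 times the count or within 0.1 of the median. For the medians the scalings could not exceed that limit, since they moved a log2 ratio by at most 0.061. The tally is therefore no measure of how firm the medians are. With a mean of at least 100, the nuclear members numbered 8 higher and 2 lower, against 46 and 46, and the median of complex IV was 0.069, that of Cox4i1 alone, since fewer genes were left. Members past the fold numbered 14 at 1.2-fold, 29 at 1.1-fold (added after the data were seen) and 0 with a mean of at least 10, against 1 at 1.5-fold. Division by the total signal moved every log2 ratio by 0.06, so that nuclear members split into 59 higher and 33 lower, and the medians of complexes II and V changed sign, to 0.04 and 0.02. The median of the mitochondrial mRNAs lay between -0.27 and -0.20 under the scalings and summaries tried. No paired analysis was possible because the deposited table gives 1 mean per gene and group, and for the same reason no library could be left out, so the spread between mice behind each ratio is unknown.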
